A study of Mus musculus with 4 samples.

Results

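The 10 genes described here, Trib3, Chac1, Sesn2, Ddit4, Atf5, Atf3, Eif4ebp1, Cebpb, Cebpg and Vldlr, are genes that the transcription factor ATF4 is known to induce or, as bZIP factors, to pair with. They were chosen by symbol, with earlier results of these data known, and all 10 were found among the 32286 features of the count matrices. In the integrated stress response, a kinase phosphorylates the initiation factor eIF2α, most translation slows and the ATF4 mRNA is translated, after which ATF4 switches on genes for amino acid supply and protein synthesis. Several of the genes it induces then restrain the response or growth. Trib3 is a pseudokinase that binds ATF4 and CHOP, Chac1 degrades glutathione, Sesn2 and Ddit4 inhibit mTORC1, and Eif4ebp1 encodes 4E-BP1, which holds the cap-binding protein eIF4E. Atf5, Atf3, Cebpb and Cebpg are bZIP factors of the same network, and Vldlr encodes a lipoprotein and Reelin receptor.

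Single-nucleus RNA sequencing was done on cortex and hippocampus of 5-week-old mice, with 2 libraries labelled Sel1L flox/flox and 2 labelled Sel1L Syn-Cre, 1 mouse each. All 4 mice carried floxed alleles of Sel1L, which encodes a subunit of the ER-associated degradation (ERAD) complex SEL1L-HRD1, and in the Syn-Cre mice Cre recombinase was driven by the Synapsin I promoter, which is active in neurons. The comparison asks how loss of this ERAD complex in neurons changes the RNA of each cell class. Nuclei were stained with propidium iodide and sorted before droplet capture, so RNA of the cytoplasm was largely not measured.

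After filtering, 33281 nuclei remained (11092 and 7861 flox/flox, 7531 and 6797 Syn-Cre), with 66008113 to 101059719 UMIs (unique molecular identifiers, each standing for 1 captured RNA) per library and a median of 7274 to 8391 UMIs per nucleus. Any 2 libraries shared 10 to 34 nucleus barcodes. Clusters were named from marker genes and are written as X-like. Clustering without integration gave the same name to 87.5% of OPC-like, 96.3% of Sst-like, 99.2% of Pvalb-like and 99.5% of DG-like nuclei, but to 37.6% of CA1-like, 58.3% of Lamp5-like and 40.1% of endothelial-like nuclei. RNA of the CRE transgene was counted in both Syn-Cre libraries (262 and 260 UMIs over all nuclei) but also, with 490 UMIs, in the library labelled flox/flox replicate 1, and was at 0 in flox/flox replicate 2. That library goes against its label, so the calls of the 10 genes are also given without it, and so are the counts of the other ATF4 targets. Sel1l itself, which the 3′ end counts here cannot check for a deletion elsewhere in the gene, was counted 11911 and 6899 times in flox/flox and 11817 and 9630 times in Syn-Cre. Xist was high in replicate 2 of both labels and low in replicate 1 of both (52 and 124337 UMIs in flox/flox, 170 and 110119 in Syn-Cre). The replicate numbers thus went with the level of Xist, although the labels name no shared litter or batch, and a fit with the replicate number as a block is given where it changed a call. Leaving out flox/flox replicate 1 leaves only the library with high Xist on the flox/flox side, against both levels in Syn-Cre.

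ATF4 is best known to bind, with a C/EBP partner, a composite element of an ATF site and a C/EBP site, and the promoters that hold it are shown because 4 of these 10 genes encode factors of those families. The motif TGATGNAA was searched on both strands in the 250 bases before each transcription start of the RefSeq promoters of GRCm38.p6. It occurred in 1134 of 32851 promoters (3.45%). Of the 10 genes, 9 had a promoter entry and 3 had a match, all on the strand opposite to the gene. The lines give 28 bases in the direction of the gene, with the matched letters in capitals.
Chac1, chr2:119351039-119351066, plus strand: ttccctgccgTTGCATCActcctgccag
Atf3, chr1:191183426-191183453, minus strand: cttctcgcacTTGCATCAccaagtccgc
Vldlr, second promoter, chr19:27216810-27216837, plus strand: gcagcaatagTTGCATCAgcgctcctag
All 3 windows hold the same 8 letters, TTGCATCA. The match ended 185 bases before the start of Chac1, outside the GENCODE gene model, 102 bases before the start of Atf3, in an intron of a longer Atf3 transcript, and 192 bases before the second Vldlr start, in an exon of a longer Vldlr transcript. No match was found in these windows of Trib3, Sesn2, Ddit4, Atf5, Cebpb, Cebpg and the first Vldlr promoter. The cAMP response element TGACGTCA (508 of 32851 promoters, 1.55%) and the ER stress response element (37 promoters, 0.113%) were in none of the windows of these genes.

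In GENCODE on GRCm38, the genes lie at chr2:152337422-152344032 (Trib3), chr2:119351229-119354381 (Chac1), chr4:132492032-132510501 (Sesn2), chr10:59949669-59951834 (Ddit4), chr7:44812256-44816658 (Atf5), chr1:191170296-191218039 (Atf3), chr8:27260329-27276674 (Eif4ebp1), chr2:167688915-167690418 (Cebpb), chr7:35046422-35056573 (Cebpg) and chr19:27216484-27254231 (Vldlr). Sesn2 overlaps Gm12981 and Cebpg overlaps Gm44836 on their own strand, where reads could be shared. Atf5 overlaps Nup62 and Il4i1, Cebpb overlaps Tmem189 and Cebpg overlaps Gm45095 on the other strand. Whether introns were counted is not given in the sources used here.

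Over all nuclei deposited, Trib3 was counted 38 and 34 times in flox/flox and 382 and 163 times in Syn-Cre, and Atf5 537 and 359 against 938 and 713 times. Vldlr was counted 4265 and 2428 against 2006 and 1936 times. These counts are not scaled for depth, as the deposited libraries held 122870443 and 76617523 UMIs in flox/flox and 75227337 and 74082610 in Syn-Cre. To compare cell classes, UMIs were summed per library and class and tested with edgeR's quasi-likelihood test, with p adjusted by the Benjamini-Hochberg method over all genes tested in that class and a threshold of 0.05. Fold changes are Syn-Cre over flox/flox throughout, and levels beside them are CPM (UMIs of a gene scaled by the total of its library and class) after TMM scaling, as mean ± SD of 2 libraries. With 2 mice a label, these p-values rest on the spread between 4 mice. A summed level does not tell fewer nuclei with the RNA from less RNA per nucleus.

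Of 73 pairs of a gene and a neuron subtype with enough UMIs to test, 16 were higher in Syn-Cre and 0 were lower. Of all genes tested in a subtype, 0.00891 to 4.63% were called higher. At an unadjusted edgeR p under 0.05, 36 pairs were higher and 1 lower. Over all genes, that unadjusted threshold was passed in either direction by 760 of 11219 in Vip-like to 2559 of 11833 in Sst-like nuclei. DESeq2 called 10 of the pairs, and from 0.0145% (Vip-like) to 3.84% (Sst-like) of all genes in either direction. The 16 fell in 4 of 11 subtypes, which were Sst-like, Pvalb-like, L4/5 IT-like and DG-like. In the 5 other classes, 8 of 24 tested pairs were higher, 5 of them in nuclei like oligodendrocyte precursor cells (OPCs). By gene, Trib3 was higher in 3 of the 4 subtypes where it could be tested, Atf5 in 3 of 10, Eif4ebp1 in 3 of 7, Chac1 in 2 of 3, Sesn2 in 2 of 8, Cebpb in 2 of 11 and Cebpg in 1 of 11. Ddit4 was tested in 8 subtypes and Vldlr in 11, and neither was called in any by the main edgeR fit (all 4 libraries, no block). Of the other settings, 2 of 13 called Vldlr and 1 of 11 called Ddit4 in Sst-like nuclei. With the replicate number as a block the 16 became 23. The calls over all genes changed with the block too, rising in most subtypes, for example from 0.479 to 2.49% in Lamp5-like nuclei. They fell in Pvalb-like (4.35 to 3.33%) and CA3-like nuclei. The block also leaves less to estimate the spread from, and the added calls need not be particular to the 10 genes. Atf3 had too few UMIs to test in every subtype in the main fit. A gene could pass the filter on low counts through the Syn-Cre libraries alone, so these counts are descriptions and not support of their own. Where libraries of the 2 labels are said below not to overlap, this describes their spread and adds no support to a call. With 2 libraries a label it is common without a change too, and its share over all genes is not given here.

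**Figure D1:**
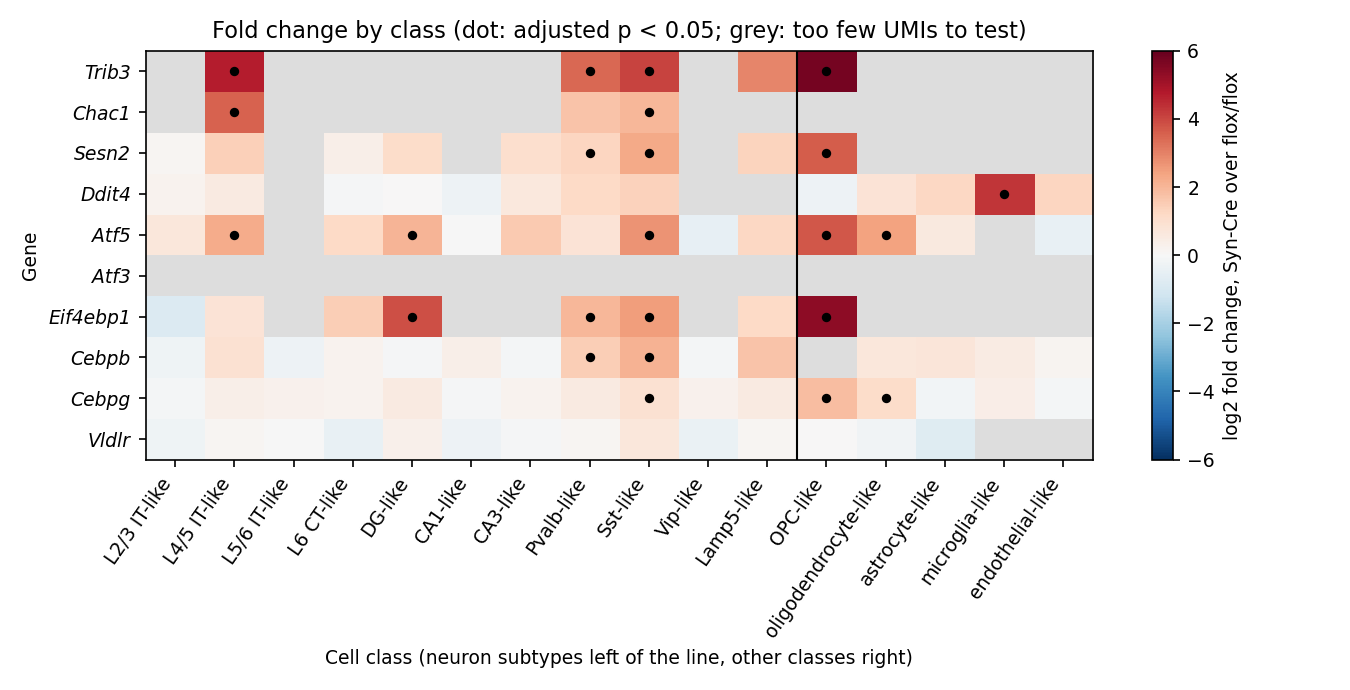
Log2 fold change (Syn-Cre over flox/flox, color scale from -6 to 6) of each of the 10 genes (rows) in 11 neuron subtypes and 5 other classes (columns). A dot marks an adjusted p under 0.05 and grey a gene with too few UMIs to test. The dots cluster in the OPC-like, Sst-like, Pvalb-like and L4/5 IT-like columns, and the Vldlr row has none.

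The OPC-like nuclei (507 and 421 flox/flox, 284 and 249 Syn-Cre) held the largest tested fold changes of Trib3, Sesn2, Atf5, Eif4ebp1 and Cebpg. OPCs divide and give rise to myelinating oligodendrocytes. All 5 listed OPC markers marked the cluster, and Pdgfra and Vcan led its genes. Atf5, Sesn2, Trib3, Eif4ebp1 and Cebpg rose, that is 5 of 10 genes, of which 7 could be tested, where 3.47% of all genes tested in this class were called higher.

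Atf5, a bZIP factor translated under eIF2α phosphorylation, was counted 15 and 12 times in the flox/flox and 104 and 94 times in the Syn-Cre OPC-like nuclei. Both Syn-Cre libraries lay far above both flox/flox libraries and close to each other. Its level went from 6.76 ± 0.238 to 91.3 ± 1.44 CPM (SD, n = 2), a log2 fold change of 3.74 (SE 0.26, edgeR adjusted p = 4.74e-14). Its dimer partner Cebpg was counted 65 and 58 against 155 and 87 times, also without overlap. The level of Cebpg rose from 31.0 ± 3.48 to 111 ± 38.2 CPM (SD, n = 2), a log2 fold change of 1.84 (SE 0.22, edgeR adjusted p = 4.12e-08).

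Among the regulators of mTORC1 and of cap-dependent translation, Sesn2 was counted 5 and 4 against 41 and 22 times in OPC-like nuclei. It rose from 2.25 ± 0.0795 to 28.8 ± 10.8 CPM (SD, n = 2), a log2 fold change of 3.64 (SE 0.45, edgeR adjusted p = 8.53e-08). Eif4ebp1 was counted 2 and 0 against 36 and 16 times, with a log2 fold change of 5.37 (SE 0.66, edgeR adjusted p = 6.32e-08). As the flox/flox side holds 2 UMIs, the ratio of the plain levels was 48.6, with a 95% counting interval of 12.8 to 412. Ddit4, the other inhibitor of mTORC1 listed, was counted 29 and 28 against 12 and 13 times, from 14.5 ± 2.42 to 11.6 ± 1.30 CPM (SD, n = 2), and was not called (log2 fold change -0.31, SE 0.38, edgeR adjusted p = 0.783). The 2 mTORC1 inhibitors thus had opposite signs in the same nuclei, Sesn2 with a call and Ddit4 without, and the sign of Ddit4 turned with doublets kept (0.0407) and with names from clustering without integration (0.63).

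Trib3 was counted 0 and 1 times in flox/flox and 31 and 8 times in Syn-Cre OPC-like nuclei. Its log2 fold change was 5.76 (SE 0.83, edgeR adjusted p = 1.82e-06), and from 1 UMI on the flox/flox side the ratio of the plain levels was 72.9, with a 95% counting interval of 12.3 to 2950. The Syn-Cre libraries differed between themselves, at 27.5 and 7.68 CPM. Chac1 (0 and 1 against 9 and 3 UMIs) and Cebpb (5 and 3 against 27 and 4 UMIs) had too few UMIs to test, and Atf3 had 1 UMI in the 4 libraries together. Vldlr, which OPC-like nuclei held at 75.7 ± 3.23 CPM in flox/flox, stood at 76.0 ± 2.94 CPM in Syn-Cre (SD, n = 2; 167 and 135 against 88 and 77 UMIs), with a log2 fold change of 0.01 (SE 0.19, edgeR adjusted p = 0.99).

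The OPC-like class differed between labels in its other content. The summed level of the 5 OPC markers was similar in the 4 libraries (3905 and 4489 CPM in flox/flox, 4493 and 4416 in Syn-Cre), but the 8 oligodendrocyte markers summed to 3187 and 2421 CPM in flox/flox and to 131 and 267 CPM in Syn-Cre. Clustering without integration named 108 of 507 (21.3%) and 61 of 421 (14.5%) of the flox/flox OPC-like nuclei immature oligodendrocyte-like, against 5 of 284 (1.76%) and 3 of 249 (1.2%) in Syn-Cre. With the OPC names from that clustering, in which those nuclei are apart, Atf5 (log2 fold change 3.86, edgeR adjusted p = 6.30e-09), Sesn2 (3.61, 4.53e-05), Eif4ebp1 (5.00, 5.68e-05) and Cebpg (1.83, 3.01e-05) were still higher, and Trib3 had too few UMIs to test. Without flox/flox replicate 1, 6 genes were called in OPC-like nuclei, the sixth being Cebpb (log2 fold change 2.96, edgeR adjusted p = 0.0327).

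**Figure D2:**
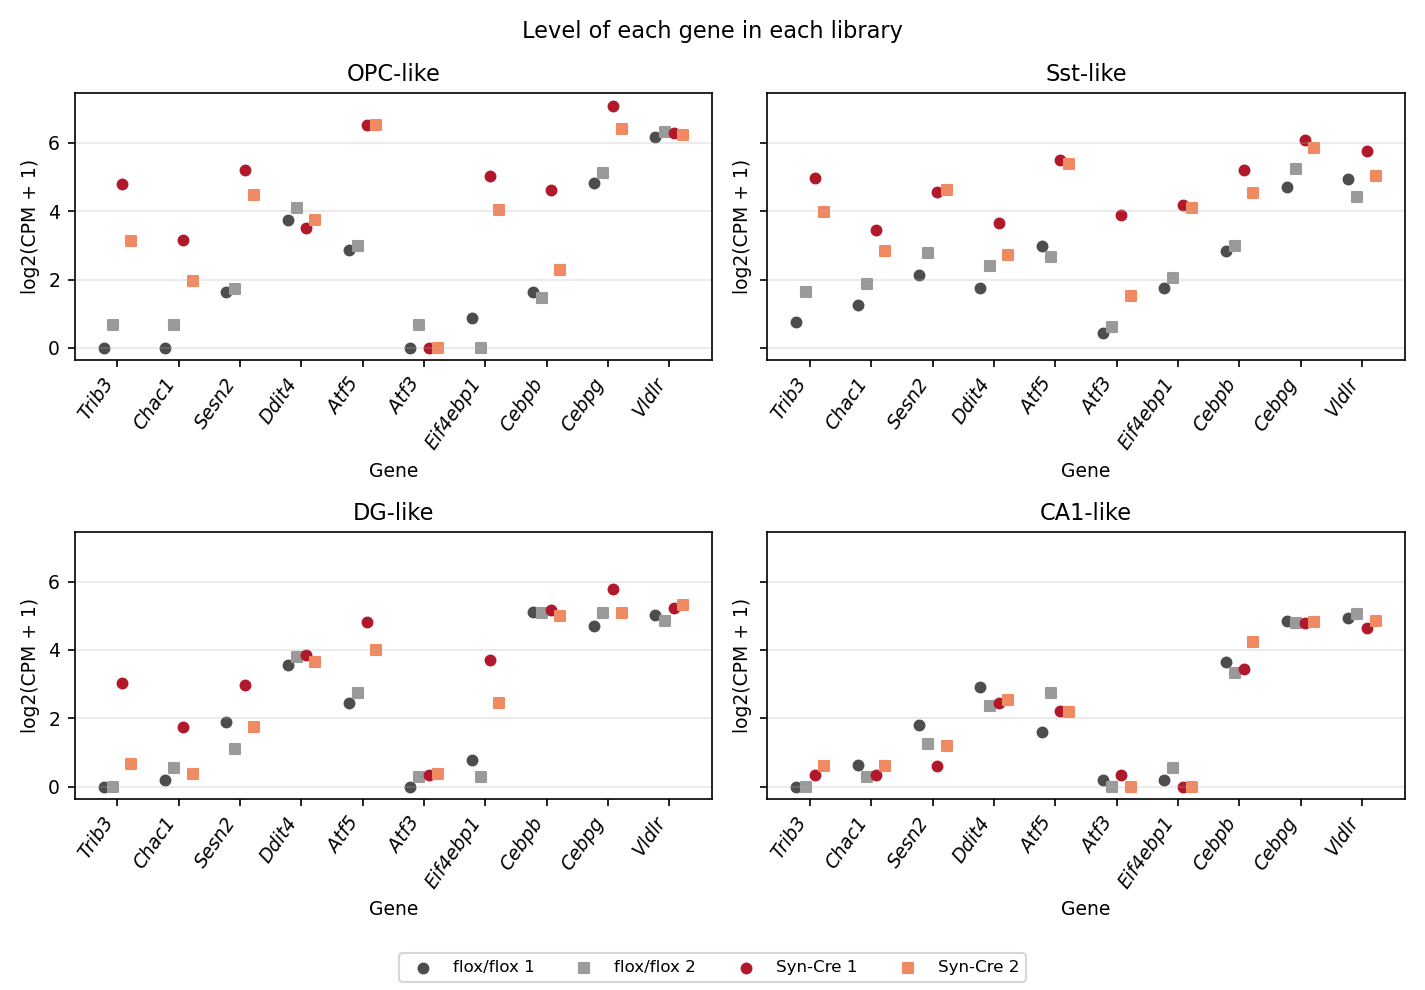
Level of each gene as log2(CPM + 1) in each of the 4 libraries, in OPC-like, Sst-like, DG-like and CA1-like nuclei. Circles are replicate 1 and squares replicate 2 of each label (grey flox/flox, red and orange Syn-Cre), and Atf5 stands apart between labels in the first 3 panels and not in CA1-like nuclei.

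Sst-like interneurons, inhibitory neurons that make somatostatin, had 7 of 10 genes higher, all but Ddit4, Vldlr and Atf3, with 9 tested, where 4.63% of all genes tested in these nuclei were called higher. Trib3 was counted 2 and 4 times in flox/flox and 55 and 24 times in Syn-Cre, and rose from 1.44 ± 1.01 to 22.1 ± 10.8 CPM (SD, n = 2), a log2 fold change of 4.03 (SE 0.53, edgeR adjusted p = 0.000115). Atf5 was counted 20 and 10 against 81 and 65 times, a log2 fold change of 2.68 (SE 0.27, edgeR adjusted p = 1.17e-05). For both genes each Syn-Cre library exceeded each flox/flox library.

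The 4E-BP1 gene Eif4ebp1 (7 and 6 against 31 and 26 UMIs) rose by 2.50 on the log2 scale (SE 0.40, edgeR adjusted p = 0.000666) in Sst-like nuclei. Sesn2 (10 and 11 against 41 and 38 UMIs) rose by 2.28 (SE 0.34, edgeR adjusted p = 0.000404). Cebpb, a bZIP factor that also forms dimers with ATF4 (18 and 13 against 65 and 36 UMIs), rose by 2.08 (SE 0.32, edgeR adjusted p = 0.000509). In these 3 genes too the libraries of the labels did not overlap.

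The smallest called changes in Sst-like nuclei were those of Chac1 (4 and 5 against 18 and 10 UMIs), with a log2 fold change of 1.99 (SE 0.54, edgeR adjusted p = 0.0306), and of Cebpg (74 and 70 against 121 and 91 UMIs), with 0.92 (SE 0.20, edgeR adjusted p = 0.00800). Both calls were lost without flox/flox replicate 1 (edgeR adjusted p = 0.276 for Chac1 and 0.155 for Cebpg), which left 5 genes called. In the main fit Ddit4 (7 and 8 against 21 and 9 UMIs, log2 fold change 1.37, edgeR adjusted p = 0.113) and Vldlr (86 and 39 against 97 and 51 UMIs, 0.66, 0.138) were not called. Of the other settings, 2 of 13 called Vldlr, the replicate block among them (0.67, adjusted p = 0.034 by edgeR), and 1 of 11 called Ddit4. That block fit called 11.4% of all genes in these nuclei, against 8.43% without the block. Atf3 was counted 1 and 1 times in flox/flox and 25 and 3 times in Syn-Cre, too few to test in the main fit, with most of its UMIs in 1 library.

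In Pvalb-like interneurons, inhibitory neurons that make parvalbumin, 4 of 10 genes were higher, with 9 tested, and 2.27% of all genes tested were called higher. Trib3 was counted 6 and 5 against 81 and 23 times (log2 fold change 3.46, SE 0.63, edgeR adjusted p = 0.00776). Eif4ebp1 (11 and 10 against 49 and 23 UMIs, log2 fold change 2.01, edgeR adjusted p = 0.0218), Cebpb (18 and 18 against 52 and 34 UMIs, 1.49, 0.0262) and Sesn2 (30 and 26 against 69 and 47 UMIs, 1.29, 0.0232) also rose, and none of the 4 genes overlapped between labels. Atf5 was counted 48 and 45 against 84 and 55 times and was not called (log2 fold change 0.81, SE 0.27, edgeR adjusted p = 0.124). The flox/flox level of Atf5 was 16.6 ± 3.39 CPM in Pvalb-like and 6.31 ± 1.33 CPM in Sst-like nuclei (SD, n = 2), and the Syn-Cre levels were 28.8 ± 9.38 and 41.5 ± 3.32 CPM. Chac1 (log2 fold change 1.70, edgeR adjusted p = 0.0700) and Ddit4 (1.19, 0.157) were not called. Which library was left out moved the number of all genes called in these nuclei, and the count of the 10 genes too. The count of 4 depended on single libraries: it was 1 (Trib3) without flox/flox replicate 1, 1 without Syn-Cre replicate 1 and 7 without Syn-Cre replicate 2.

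Among excitatory neurons, L4/5 IT-like nuclei, intratelencephalic neurons of the middle cortical layers, had 3 of 10 genes higher, with 9 tested and 1.4% of all genes tested called higher. Trib3 was counted 1 and 1 times in flox/flox and 27 and 22 times in Syn-Cre, a log2 fold change of 4.70 (SE 0.68, edgeR adjusted p = 0.00662), and the ratio of the plain levels was 30.0 with a 95% counting interval of 7.88 to 255. Chac1 was counted 3 and 1 against 19 and 23 times (log2 fold change 3.55, SE 0.60, edgeR adjusted p = 0.0145). Atf5 was counted 12 and 17 against 50 and 65 times (log2 fold change 2.21, SE 0.34, edgeR adjusted p = 0.00951). Both Syn-Cre libraries exceeded both flox/flox libraries in all 3 genes. Sesn2 (23 and 12 against 42 and 35 UMIs) and Cebpb (46 and 49 against 65 and 86 UMIs) had log2 fold changes of 1.41 and 0.89 and missed the threshold (edgeR adjusted p = 0.0945 and 0.101). Without flox/flox replicate 1, 4 genes were called, with Sesn2 added (log2 fold change 1.72, edgeR adjusted p = 0.0444). With the replicate block Sesn2 and Cebpb were called as well (edgeR adjusted p = 0.0191 and 0.0492), which made 5. The block fit called 4.77% of all genes in these nuclei, against 2.05% without the block.

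In DG-like nuclei, granule neurons of the dentate gyrus, 2 of 10 genes were higher, with 7 tested and 1.99% of all genes tested called higher. Atf5 was counted 31 and 25 against 103 and 51 times (log2 fold change 2.03, SE 0.30, edgeR adjusted p = 0.00182). Eif4ebp1 was counted 5 and 1 against 46 and 15 times (log2 fold change 3.88, SE 0.63, edgeR adjusted p = 0.00336). In both genes Syn-Cre replicate 1 stood well above replicate 2. Trib3 was counted 0 times in either flox/flox library and 27 and 2 times in Syn-Cre, with nearly all UMIs in 1 library. Its summed Syn-Cre level was 15.3-fold that of 3 UMIs over both flox/flox libraries, a value that leaves out the counting error in Syn-Cre. Cebpb, which DG-like nuclei held at 33.8 ± 0.753 CPM in flox/flox, was at 32.3 ± 3.48 CPM in Syn-Cre (SD, n = 2; log2 fold change -0.06, edgeR adjusted p = 0.898), although in Sst-like and Pvalb-like nuclei it was called. Without flox/flox replicate 1 only Eif4ebp1 was called, with Atf5 at a log2 fold change of 1.86 (adjusted p = 0.0561 by edgeR), and without Syn-Cre replicate 2 there were 5 calls. The replicate block added Cebpg (0.57 on the log2 scale, edgeR adjusted p = 0.0196). It called 6.55% of all genes in these nuclei, against 3.73% without it.

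No gene of the 10 was called in the other 7 subtypes by the main edgeR fit or by DESeq2. At an unadjusted edgeR p under 0.05 Lamp5-like nuclei had 5, L6 CT-like and CA3-like nuclei 2 each, L2/3 IT-like nuclei 1 and the remaining 3 subtypes 0. Of all genes tested, 1177 of 10448 in Lamp5-like and 1615 of 13619 in L6 CT-like nuclei passed that unadjusted threshold in either direction. In CA3-like nuclei 973 of 12197 did, and in L2/3 IT-like nuclei 1932 of 15240. In Lamp5-like interneurons, with 7 tested and 0.297% of all genes called higher, Trib3 (2 and 2 against 16 and 12 UMIs) had a log2 fold change of 2.94 (adjusted p = 0.0660 by edgeR) and Cebpb (9 and 9 against 26 and 26 UMIs) one of 1.72 (0.0864). Their libraries did not overlap, and 1 or 2 genes were called when flox/flox replicate 1 (1), flox/flox replicate 2 (1) or Syn-Cre replicate 2 (2) was left out. With the replicate block 3 genes were called there, Trib3 (2.98, edgeR adjusted p = 0.00228), Atf5 (1.29, 0.0122) and Cebpb (1.72, 0.00949). The block fit called 2.49% of all genes in Lamp5-like nuclei, against 0.479% without the block. In CA3-like nuclei, with 6 tested and 0.0328% of all genes called, Atf5 (10 and 6 against 30 and 15 UMIs) had 1.55 (0.477). In L6 CT-like nuclei, with 7 tested and 0.455% called, Eif4ebp1 (14 and 3 against 27 and 17 UMIs) had 1.47 (0.276) and Atf5 (10 and 12 against 24 and 25 UMIs) had 1.21 (0.267).

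The 4 remaining subtypes had smaller values. In L2/3 IT-like nuclei, with 7 tested and 0.322% of all genes called higher, fold changes ran from -0.84 for Eif4ebp1 (55 and 83 against 38 and 34 UMIs) to 0.69 for Atf5 on the log2 scale, and Eif4ebp1 was called lower without flox/flox replicate 1 (-1.23, edgeR adjusted p = 0.0482). In CA1-like nuclei, with 5 tested and 0.0152% called, Atf5 was counted 15 and 25 against 14 and 14 times (log2 fold change -0.03, edgeR adjusted p = 0.991) and Trib3 0 and 0 against 1 and 2 times. In Vip-like (4 tested, 0.00891% called) and L5/6 IT-like nuclei (3 tested, 0.0774% called) the log2 fold changes lay between -0.51 and 0.27. Over all neuron-like nuclei together, all 10 genes could be tested and none was called in the main fit, where 0.139% of all genes were called higher. There Trib3 (31 and 29 against 287 and 127 UMIs) had a log2 fold change of 3.03 (adjusted p = 0.0684 by edgeR), Atf3 (4 and 7 against 47 and 21 UMIs) had 2.84 (0.154), and Vldlr had -0.12 (0.662). The sum over subtypes mixes those with and without calls. DESeq2 called 4 of the 10 genes in this sum, but also 2.74% of all genes, against 0.169% in the main fit. The added calls need not be particular to the 10 genes. An unadjusted edgeR p under 0.05 was found for 6 of the 10 and for 2552 of all 20127 genes tested. With the replicate block 5 of the 10 genes were higher, Trib3 (log2 fold change 3.05, edgeR adjusted p = 0.00243), Atf3 (2.90, 0.022), Atf5 (adjusted p = 0.0195), Sesn2 (0.0318) and Chac1 (0.0321). The block fit called 1.49% of all genes in this sum, against 0.169% without the block.

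In oligodendrocyte-like nuclei, the myelinating cells, 2 of 10 genes were higher, with 5 tested and 0.689% of all genes called higher. Atf5 was counted 44 and 22 times in 1848 and 1174 flox/flox nuclei and 47 and 28 times in 358 and 365 Syn-Cre nuclei, from 6.50 ± 0.113 to 34.9 ± 12.1 CPM (SD, n = 2), a log2 fold change of 2.41 (SE 0.31, edgeR adjusted p = 0.0109). Cebpg was counted 256 and 158 against 100 and 92 times, from 42.2 ± 5.54 to 89.4 ± 4.34 CPM (SD, n = 2), a log2 fold change of 1.09 (SE 0.18, edgeR adjusted p = 0.0266). The same pair of bZIP genes had thus risen in both classes of the oligodendrocyte lineage. Without flox/flox replicate 1 both were still called (2.42, adjusted p = 3.15e-06, and 0.95, 0.0297, by edgeR), and the replicate block added Ddit4 (0.80, adjusted p = 0.00309). Trib3 was at 0 in both flox/flox libraries and at 4 and 3 UMIs in Syn-Cre. Its summed Syn-Cre level was 11.2-fold that of 3 UMIs over both flox/flox libraries, again without the counting error in Syn-Cre. Vldlr, whose level was highest in these nuclei, was counted 1088 and 481 against 137 and 144 times (log2 fold change -0.21, edgeR adjusted p = 0.701). In the main fit Vldlr was called in none of the 16 classes, and under other settings only in Sst-like nuclei. Over all nuclei deposited its UMIs, not scaled for depth, were fewer in Syn-Cre, as were the oligodendrocyte-like nuclei.

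Over all nuclei of the named classes other than neurons together, 8 of 9 genes tested were higher, where 8.98% of all genes were called higher, and 1 was lower, where 6.69% were called lower. The gene that fell was Vldlr (1314 and 637 against 286 and 260 UMIs, log2 fold change -1.04, SE 0.18, edgeR adjusted p = 0.00917). The 8 higher genes ran from Trib3 (1 and 1 against 47 and 12 UMIs, 5.34, 0.00298) to Cebpg (644 and 437 against 592 and 384 UMIs, 0.55, 0.0278), and only Atf3 had too few UMIs to test. With any library left out 4 or 5 were still called higher and 1 lower. In the same sum the oligodendrocyte-like nuclei, which held the highest Vldlr level, went from 1848 and 1174 to 358 and 365, so a change within a class and a change of makeup cannot be told apart in it.

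Ddit4, which encodes REDD1 and is known to respond to glucocorticoids as well as to ATF4, was called in 1 class in the main fit. Some other settings also called it in oligodendrocyte-like (3 of 12 settings), astrocyte-like (1 of 12) and Sst-like nuclei (1 of 11). In microglia-like nuclei, where 3 genes were tested and 0.056% of all genes were called higher, it was counted 4 and 4 times in flox/flox and 31 and 62 times in Syn-Cre, from 3.05 ± 0.710 to 61.3 ± 37.3 CPM (SD, n = 2), a log2 fold change of 4.28 (SE 0.56, edgeR adjusted p = 0.0255). The glucocorticoid-responsive gene Fkbp5 was at 190 and 316 CPM in the flox/flox and at 916 and 1232 CPM in the Syn-Cre microglia-like nuclei, and the part of glucocorticoids in the Ddit4 value was not tested. Atf5 was counted 17 and 10 against 5 and 4 times there, too few to test. Without flox/flox replicate 1 Ddit4 stayed higher (log2 fold change 4.02, edgeR adjusted p = 1.81e-11). The call of Ddit4 was lost without Syn-Cre replicate 2 and with doublets kept. In astrocyte-like nuclei none of 5 genes tested was called by edgeR or DESeq2, with 0.364% of all genes called higher. At an unadjusted edgeR p under 0.05 there was 1 of the 5, and 1222 of all 11542 genes tested. Ddit4 (29 and 13 against 117 and 44 UMIs) had a log2 fold change of 1.25 (adjusted p = 0.0902 by edgeR). Of 12 other settings, 1 called Ddit4 in these nuclei, the fit without Syn-Cre replicate 2. In endothelial-like nuclei, with 4 tested and 0.0496% called, Ddit4 (8 and 3 against 38 and 17 UMIs) had 1.31 (0.719), the only one of the 4 at an unadjusted edgeR p under 0.05. Of all 8063 genes tested there, 467 passed that unadjusted threshold. Flox/flox replicate 2 held 40 endothelial-like nuclei, and DESeq2 made no call there.

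A call in one class and none in another does not show a difference, so the difference of the fold changes was tested in 1 model with the library as a block. Between Sst-like and CA1-like nuclei, where 2.34% of all genes differed in either direction, 3 of 9 genes differed. The log2 fold change was larger in Sst-like nuclei by 3.46 for Sesn2 (SE 0.71, edgeR adjusted p = 0.0207), by 2.62 for Atf5 (SE 0.53, 0.0190) and by 0.97 for Cebpg (SE 0.24, 0.0497). Between DG-like and CA1-like nuclei, with 1.94% of genes differing, Atf5 differed by 2.03 (SE 0.47, edgeR adjusted p = 0.0360). None of 10 genes differed between Pvalb-like and CA1-like nuclei (1.74% of all genes) and none of 9 between L4/5 IT-like and CA1-like nuclei (0.0854%). At an unadjusted edgeR p under 0.05, whose share of all genes is not given here for any contrast, 5 and 4 of them did. DESeq2 called none in these 4 contrasts. These calls depended on single libraries, with 0 to 5 for Sst-like and 0 or 1 for DG-like nuclei as each library was left out. Trib3 gave no usable difference against CA1-like nuclei, since it was at 0 there in flox/flox.

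Against astrocyte-like nuclei, which held little Cre RNA, the fold change in OPC-like nuclei was larger for 4 of 8 genes, where 2.86% of all genes differed in either direction. It was larger by 3.18 on the log2 scale for Atf5 (SE 0.42, edgeR adjusted p = 0.000452), by 5.27 for Eif4ebp1 (SE 1.10, 0.0167), by 3.59 for Sesn2 (SE 0.77, 0.0184) and by 2.03 for Cebpg (SE 0.32, 0.00191), and none of the 4 was called without flox/flox replicate 1. Against oligodendrocyte-like nuclei none of 8 genes differed (1.95% of all genes), with Atf5 larger in OPC-like nuclei by 1.34 (SE 0.38, edgeR adjusted p = 0.132) and 4 of 8 at an unadjusted p under 0.05. Both of these tests were chosen after the data were seen. Between all neuron-like nuclei and all other named nuclei, where 7.22% of genes differed, the fold change was smaller in neuron-like nuclei for Sesn2 (-1.36, edgeR adjusted p = 0.0303) and larger for Atf3 (3.6, 0.0205) and Vldlr (0.94, 0.0427). The other named nuclei changed in makeup, as oligodendrocyte-like nuclei fell from 1848 and 1174 to 358 and 365, and no more than 1 of these 3 calls stood when any library was left out.

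To ask in how many nuclei the RNA was found, each nucleus was thinned to 2000 UMIs and the share with at least 1 UMI of a gene was taken. Nuclei with fewer than 2000 UMIs were left out. Microglia-like nuclei had a median of 1745.5 to 1913 UMIs per library, so most of them were left out. The thinned shares there describe the deeper nuclei only. In OPC-like nuclei, Atf5 was found in 3 of 500 (0.6%, Wilson 95% interval 0.204 to 1.75%) and 7 of 394 (1.78%, 0.863 to 3.62%) flox/flox nuclei and in 49 of 272 (18%, 13.9 to 23%) and 40 of 240 (16.7%, 12.5 to 21.9%) Syn-Cre nuclei. The Syn-Cre libraries thus lay far above the flox/flox libraries, also unthinned (30.4% against 2.81% on average). The exact permutation test over 4 libraries cannot give a two-sided p below 0.333, which is its value here and for each comparison of shares that did not overlap. No class can be taken to lack Atf5, but in CA1-like nuclei of the same Syn-Cre libraries its share was 1.32% and 0.987%, and in microglia-like nuclei 0.524% and 0.645%. The intervals cover counting error only.

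Cebpg went from 4.2% and 5.33% to 21.0% and 17.5% of OPC-like nuclei, and Sesn2 from 0.4% and 0.254% to 7.72% and 2.50%. Trib3 was in 0 of 500 and 0 of 394 flox/flox OPC-like nuclei, which allows shares of up to 0.6% and 0.761%, and in 16 of 272 (5.88%) and 3 of 240 (1.25%) Syn-Cre nuclei. At least 1 of the 10 genes was found in 16.6% and 22.1% of flox/flox and in 61.0% and 42.5% of Syn-Cre OPC-like nuclei. The same share went from 16.2% and 17.9% to 43.2% and 34.8% in Sst-like nuclei, from an average of 20.3% to 36.4% in Pvalb-like, 19.4% to 27.9% in DG-like and 12.4% to 17.7% in L4/5 IT-like nuclei. In CA1-like nuclei it went from 14.4% to 18.1% at 2000 UMIs but fell by 2.48 percentage points at 4000 UMIs and by 1.43 unthinned, so it had no stable direction there. Among microglia-like nuclei with at least 2000 UMIs, Ddit4 went from 0.285% and 0.441% to 5.24% and 14.8%.

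**Figure D3:**
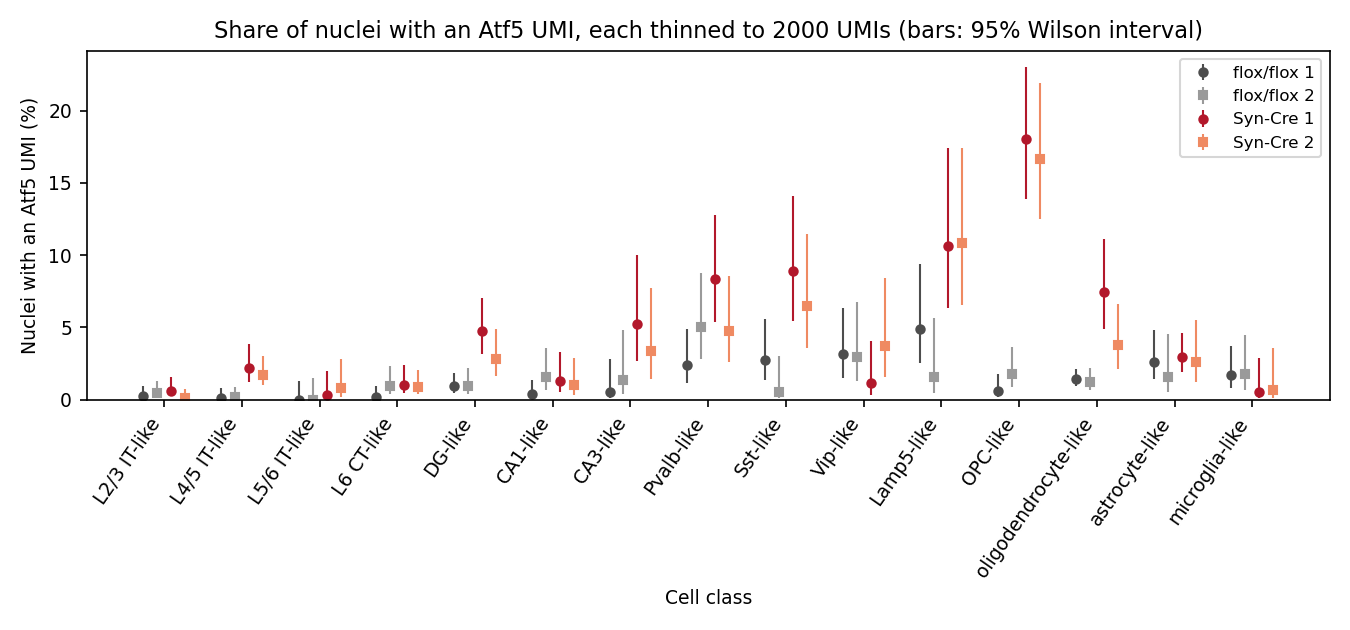
Share of nuclei with an Atf5 UMI (percent, y axis) in each cell class and library after thinning each nucleus to 2000 UMIs, with 95% Wilson intervals. Nuclei under 2000 UMIs, most of the microglia-like ones, are left out. The OPC-like Syn-Cre libraries, at 18% and 16.7%, are the highest points, and in microglia-like nuclei the Syn-Cre libraries lie below the flox/flox libraries.

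The nuclei with an Atf5 UMI were then compared with those without one for 39 other known ATF4 targets, none of them among the 10 genes. In Syn-Cre OPC-like nuclei these targets took 41.4 and 35.9 UMIs per 10000 in nuclei with Atf5 (49 and 40 nuclei) and 44 and 32.2 in nuclei without it (223 and 200 nuclei). In flox/flox OPC-like nuclei without Atf5 they took 13.1 and 14.4. After thinning, Atf5 RNA can be missed in a nucleus that holds it, so this split cannot tell whether targets rose without Atf5. In OPC-like nuclei the target level was higher in Syn-Cre, with or without an Atf5 UMI, than in flox/flox nuclei without one. Sst-like nuclei behaved alike, with 43.3 and 40.0 with Atf5 (15 and 10 nuclei), 43.0 and 33.3 without, and 14.2 and 15.9 in flox/flox nuclei without. In DG-like nuclei the Syn-Cre libraries differed, with 22.6 against 21.9 in replicate 1 and 24.2 against 13.5 in replicate 2. Over all neuron-like nuclei, those with Atf5 held more target RNA in all 4 libraries, 14.8 and 14.1 against 9.57 and 10.2 in flox/flox and 29.7 and 23.6 against 14.9 and 13.1 in Syn-Cre, where nuclei with Atf5 come from other subtypes in other proportions. These are descriptions without a test.

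**Figure D4:**
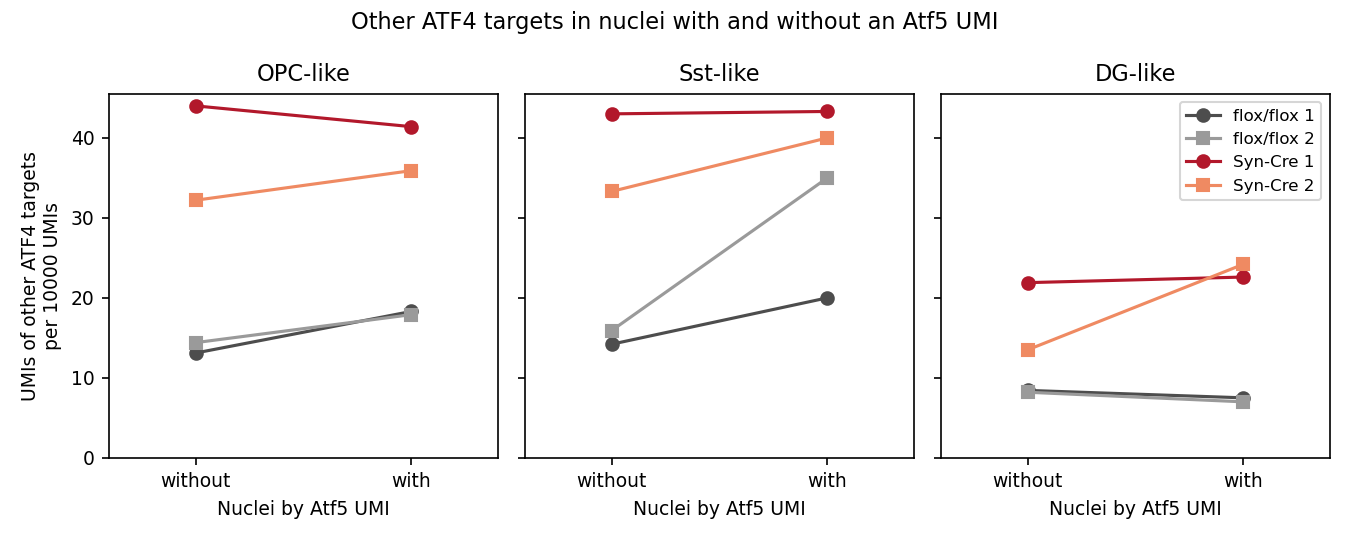
UMIs of 39 other ATF4 targets per 10000 UMIs (y axis) in nuclei without and with an Atf5 UMI, 1 line per library, in OPC-like, Sst-like and DG-like nuclei. In OPC-like nuclei both Syn-Cre lines (32.2 to 44) lie above both flox/flox lines (13.1 to 18.3) at both ends, and points of flox/flox nuclei with Atf5 rest on 8 nuclei or fewer.

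The levels of the genes in the flox/flox libraries, as plain CPM per class, differed widely between classes. The order that follows is over 15 classes, without endothelial-like nuclei, of which flox/flox replicate 2 held 40. Ddit4 was highest in oligodendrocyte-like nuclei (33.9 and 44.5 CPM), then in astrocyte-like (mean 18.3) and OPC-like nuclei (14.2), and lowest in L5/6 IT-like nuclei (1.91). The first 2 did not overlap with the class after them, while OPC-like nuclei overlapped with DG-like nuclei, the next in order at 11.9 CPM. Vldlr was highest in oligodendrocyte-like nuclei (160 and 138 CPM), followed by OPC-like (74.3) and Vip-like nuclei (49.8), and was lowest in microglia-like nuclei (7.84). The bZIP genes Cebpg (140 and 165 CPM), Cebpb (52.6 and 61.9 CPM) and Atf3 (6.12 and 8.59 CPM) were each highest in microglia-like nuclei, clear of the class next in order, which for Cebpb was DG-like (33.0 CPM). Atf5 was highest in Vip-like (17.7), Pvalb-like (16.1), Lamp5-like (13.9) and astrocyte-like nuclei (13.0), each overlapping with the next, and lowest in L2/3 IT-like nuclei (1.30). The endothelial-like nuclei, from 15 and 5 UMIs, held Atf5 at 32.6 and 58.7 CPM, above all of these classes. They held Ddit4 at 17.4 and 35.2 CPM, overlapping with oligodendrocyte-like nuclei, and Atf3 at 0 and 11.7 CPM, a range that covers the microglia-like values from a single UMI. This class was mixed. In flox/flox its endothelial markers summed to 4593 and 5127 CPM, beside 1797 and 2452 CPM of fibroblast or pericyte markers. The levels given for it are thus not those of endothelial cells alone.

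Trib3, Chac1 and Sesn2 were each highest in Pvalb-like nuclei of flox/flox (mean 1.88, 2.78 and 9.62 CPM), and for Trib3 and Chac1 these ranges overlapped with those of the other interneuron subtypes. Trib3 had no UMI in either flox/flox library in DG-like, CA1-like, L5/6 IT-like, oligodendrocyte-like, astrocyte-like and microglia-like nuclei. In Syn-Cre, Trib3 was highest in Sst-like (30.1 and 14.9 CPM), Pvalb-like (34.7 and 9.43), OPC-like (27.0 and 7.68) and Lamp5-like nuclei (14.7 and 10.2), each overlapping with the next. DG-like nuclei, the next of the 15 classes at 7.13 and 0.593 CPM, did not overlap with Lamp5-like nuclei, and endothelial-like nuclei were at 7.39 and 2.94 CPM. Eif4ebp1 was highest in L2/3 IT-like nuclei of flox/flox (4.76 and 9.24 CPM) and near the bottom in OPC-like nuclei (0.845 and 0 CPM), the class with its largest tested fold change.

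The classes were also ordered by the RNA of the Cre transgene. Cre RNA in the Syn-Cre libraries was highest in Pvalb-like (29.1 and 25.4 CPM), Sst-like (17.5 and 14.9) and OPC-like nuclei (17.4 and 11.5), then in Lamp5-like (8.29 and 7.66), DG-like (5.54 and 7.11), CA3-like (4.38 and 8.16) and L4/5 IT-like nuclei (3.43 and 3.84). It was at 0.260 and 0.254 CPM in CA1-like nuclei and at 0 in oligodendrocyte-like nuclei. OPCs are not neurons, but Cre RNA was counted in the OPC-like nuclei at 20 and 12 UMIs in Syn-Cre and at 32 UMIs in flox/flox replicate 1. Across 16 classes, the median log2 fold change of the tested members of the 10 genes went up with Cre RNA (Spearman's rho 0.571, Pearson's r 0.671 on log2 of Cre CPM plus 1), and so did that of the other ATF4 targets (rho 0.697, r 0.746). The points share the same 4 libraries, differ in depth and in which genes could be tested, and get no p. A gene with few UMIs could enter a median through high Syn-Cre counts alone, which raises the median in the classes that changed most. Trib3, for example, entered in OPC-like nuclei (0 and 1 against 31 and 8 UMIs) and not in CA1-like nuclei. The order is thus a description and no support. Oligodendrocyte-like nuclei, with no Cre RNA, 2 genes called and a median of 0.839, fell off that order. Lamp5-like nuclei, at rank 4 by Cre RNA, had no gene called but a median of 1.22.

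Flox/flox replicate 1 held Cre RNA in the same classes, at 29.8 CPM in Pvalb-like, 20.9 in Sst-like and 13.5 in OPC-like nuclei, while the called genes in those classes were near flox/flox replicate 2 in it. Trib3, for example, had 0.684 and 2.11 CPM in the flox/flox libraries against 30.1 and 14.9 CPM in the Syn-Cre libraries in Sst-like nuclei. The level of Sel1l RNA in Syn-Cre over flox/flox was 4.21 in Pvalb-like, 4.04 in Sst-like, 2.83 in OPC-like, 2.79 in DG-like, 2.23 in oligodendrocyte-like and 0.970 in CA1-like nuclei, so in these classes other than CA1-like nuclei the level was higher in Syn-Cre.

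**Figure D5:**
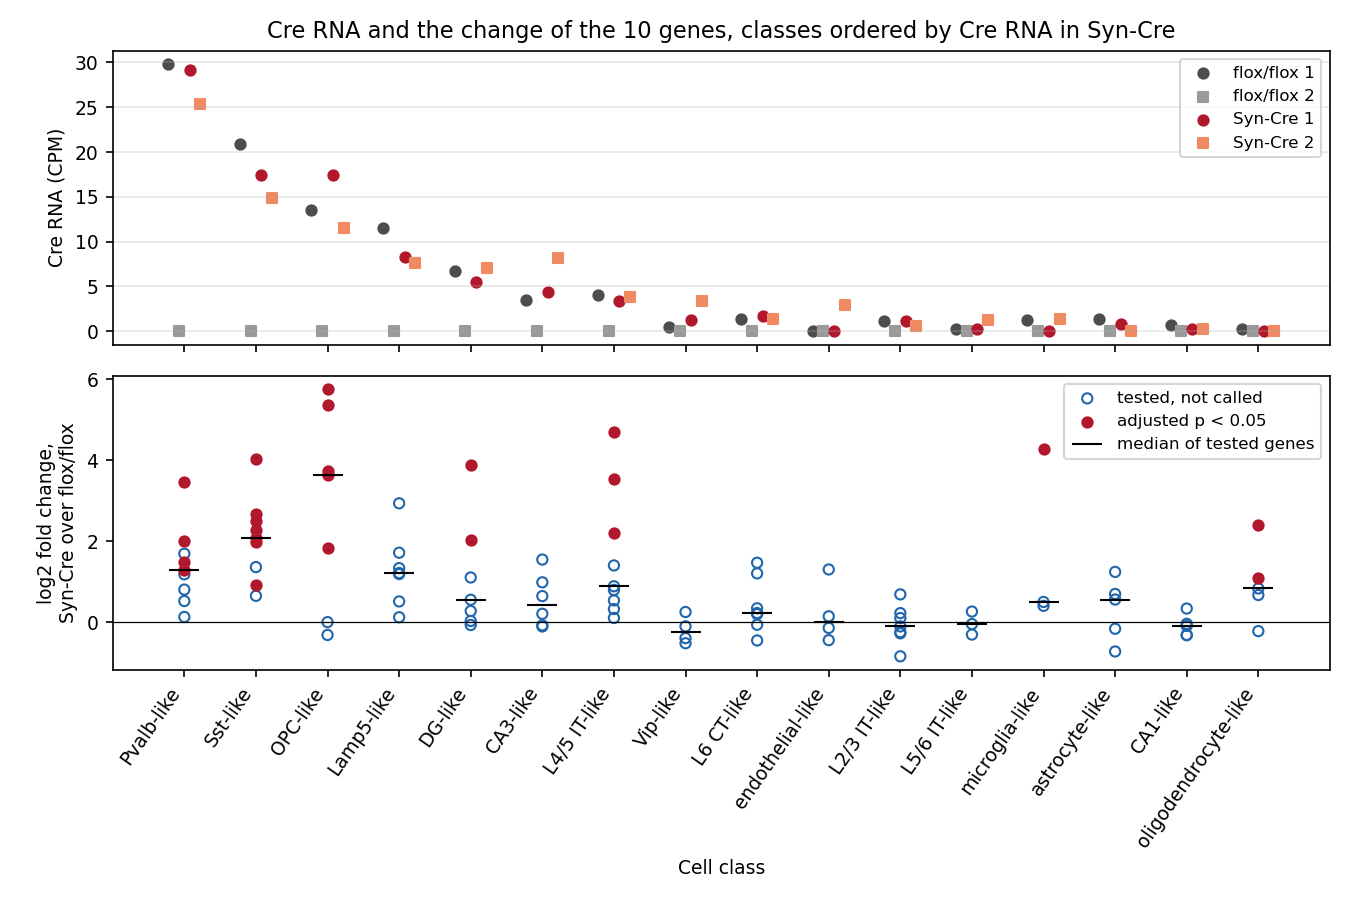
Above, CPM of the Cre transgene in each library, with classes ordered by its mean in Syn-Cre. Below, log2 fold changes of the tested genes of the 10 in the same classes (filled red, adjusted p under 0.05), with the median as a bar, at 3.64 in OPC-like and 2.08 in Sst-like nuclei.

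The other genes of the pathway were described from lists. Of 39 other ATF4 targets, 31 of 33 tested rose in OPC-like nuclei (median log2 fold change 1.75), 23 of 32 in DG-like (1.15), 33 of 35 in Sst-like (1.26), 16 of 34 in Pvalb-like (0.80), 12 of 33 in L4/5 IT-like (0.63), 8 of 27 in oligodendrocyte-like and 1 of 32 in Lamp5-like nuclei, and none of 28, 29 and 23 in CA1-like, astrocyte-like and microglia-like nuclei by edgeR, where 2, 6 and 0 were higher at an unadjusted p under 0.05. Over all genes, 1070 of 13131, 1222 of 11542 and 888 of 10717 had an unadjusted edgeR p under 0.05 in CA1-like, astrocyte-like and microglia-like nuclei. The median over all genes tested lay within 0.01 of 0 on the log2 scale in each of the classes listed. The cystine transporter Slc7a11 had log2 fold changes of 4.83 in Sst-like and 6.54 in OPC-like nuclei, the large amino acid transporter Slc7a5 1.71 and 4.26, the cationic amino acid transporter Slc7a3 1.81 and 2.08, and the serine synthesis enzymes Phgdh 2.88 and 1.86 and Psph 1.57 and 1.08. These 5 genes were each higher in 4 subtypes. Without flox/flox replicate 1 fewer of these targets were higher in DG-like (7 of 33), Pvalb-like (10 of 36) and Sst-like nuclei (22 of 35), while OPC-like nuclei had 30 of 34, L4/5 IT-like nuclei 15 of 33, oligodendrocyte-like nuclei 8 of 27 and Lamp5-like nuclei 2 of 32. The other libraries moved these counts too, to 7 (without flox/flox replicate 2) and 13 (without Syn-Cre replicate 1) in DG-like, to 9 (without Syn-Cre replicate 1) and 28 (without Syn-Cre replicate 2) in Pvalb-like, and without Syn-Cre replicate 2 to 7 in Lamp5-like and 5 in oligodendrocyte-like nuclei, whereas the count in OPC-like nuclei ran from 29 to 31.

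Of 16 core genes of the integrated stress response, Sst-like nuclei had 5 higher among 15 tested and DG-like nuclei 3 among 15, while OPC-like, Pvalb-like and L4/5 IT-like nuclei had 2 each among 16. Ddit3, which encodes CHOP (log2 fold change 3.21 in Sst-like and 2.85 in OPC-like nuclei), and Dnajc3, an inhibitor of the eIF2α kinase PERK (2.92 and 1.56), were each higher in 7 subtypes. The RNA of Atf4 itself, whose protein is set mainly by translation, was called in Sst-like nuclei (1.04) and not in OPC-like nuclei (0.07). OPC-like nuclei held the largest tested fold changes of Trib3, Sesn2, Atf5, Eif4ebp1 and Cebpg, but not of Ddit3 and Dnajc3. The kinase gene Eif2ak3 was higher in 2 subtypes and the phosphatase subunit gene Ppp1r15a in 1.

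Sesn2, Ddit4 and Eif4ebp1 act on mTORC1 or its output, but the RNA of the pathway itself stayed uncalled in most classes. Of 25 genes of mTORC1 and cap-binding control, none was higher in Sst-like, Pvalb-like, DG-like or OPC-like nuclei by edgeR, with 24, 24, 24 and 23 tested, medians of 0.09, -0.02, -0.01 and -0.04 on the log2 scale and 3, 2, 0 and 1 higher at an unadjusted p under 0.05. Over all genes, 2559 of 11833, 2104 of 12261, 2159 of 13095 and 2086 of 11573 passed that unadjusted threshold in either direction. In L4/5 IT-like nuclei 1 of 24 was higher, and Rheb, an activator of mTORC1, was higher in 2 subtypes. Of 15 paralogues of the genes described, 3 of 10 tested were higher in Sst-like and 2 of 12 in OPC-like nuclei. Among them Trib1, related to Trib3, had 1.22 in OPC-like nuclei and was higher in 2 subtypes, as was Jdp2, related to Atf3 (1.22 in OPC-like nuclei). Fos was higher in Sst-like nuclei (2.66) and Chac2, the paralogue of Chac1, there by 0.64.

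Of 11 genes of the Reelin and lipoprotein receptor pathway, to which Vldlr belongs, 1 was higher and 3 were lower in OPC-like nuclei and 1 of 10 was lower in Sst-like nuclei. Of all genes tested, 570 of 11573 were called lower in OPC-like and 449 of 11833 in Sst-like nuclei. The OPC-like class also held fewer immature oligodendrocyte-like nuclei in Syn-Cre. Reln, the ligand of the receptor, was lower in 3 subtypes, with -0.67 in Sst-like nuclei. The stress genes of the ATF6 and XBP1 branches rose together with the ATF4 genes, 16 of 16 in Sst-like and in Pvalb-like, 15 of 16 in DG-like, 12 of 16 in OPC-like and 10 of 16 in L4/5 IT-like and in Lamp5-like nuclei. Derl3 and Hspa5, which encodes the chaperone BiP, were each higher in 7 subtypes. In Lamp5-like nuclei 10 stress genes of these branches were called (7 without flox/flox replicate 1), and none of the genes from Trib3 to Vldlr in the fit without the block. Of the immediate early genes, 2 of 8 tested were higher in Sst-like and none of 8 in Pvalb-like nuclei, and Nr4a1 was higher in 4 subtypes. In L4/5 IT-like nuclei 3 of 12 were higher and 1 lower, where 94 of 14668 genes tested were called lower. Of the glucocorticoid-responsive genes, 5 of 9 were higher in OPC-like, 4 of 10 in oligodendrocyte-like, 3 of 10 in astrocyte-like, 2 of 9 in microglia-like and 2 of 7, with 1 lower, in Sst-like nuclei, and 4 of 10 were higher in L4/5 IT-like and 3 of 9 in L6 CT-like nuclei.

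Over the 44 sums of 11 subtypes and 4 libraries, the genes whose log2(CPM + 1) went most closely with Trib3 among 15418 genes were Gm15687 (Pearson's r 0.955), Herpud1 (0.940), Lars (0.935), Slc7a11 (0.931) and Eif2s2 (0.930). For Vldlr they were Igsf11 (0.820), Gm35438 (0.818), Tcerg1l (0.816), Kirrel3 (0.8) and Fyn (0.784). The sums share libraries and differ in depth, so these values describe likeness only.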

How the data were processed

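Nuclei were captured with a 10x Genomics 3′ kit, and the authors deposited 1 matrix of raw UMI counts per nucleus and gene for each library, made per the submitters' processing notes with Cell Ranger 6.1.0 on GRCm38. Whether introns were counted is not given in the sources used here. Nuclei with more than 600 genes and under 5% mitochondrial UMIs were kept, and doublets were removed by Scrublet scores (scanpy 1.11.5) at 0.8% per 1000 nuclei (434 to 1270 per library). Libraries were integrated in Seurat 5.3.0 (2000 features, 17 dimensions, resolution 0.2, and 0.4 for neuron-like nuclei), and clusters were named from marker lists. UMIs were summed per library and class and tested in edgeR 4.0.16 (TMM, filterByExpr, quasi-likelihood test, Benjamini-Hochberg over all genes of a class), with DESeq2 1.42.0 as an alternative. On simulated data 105 of 107 genes changed by 2 on the log2 scale were recovered in Sst-like and 90 of 94 in OPC-like nuclei, and of those changed by 1, 55 of 87 in Sst-like, 51 of 100 in OPC-like and 32 of 98 in astrocyte-like nuclei. Of differences of 2 between classes, 131 of 200 were recovered for Sst-like against CA1-like and 121 of 199 for OPC-like against astrocyte-like nuclei. The changed genes were drawn at random from all genes that passed the filter, so these rates need not hold for genes with few UMIs. All 10 genes are named, and from each list at most 5, those called in the most subtypes. The genes and lists were chosen with earlier results of these data known.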

Additional observations from a re-analysis of the deposited data

Results flagged for a closer look

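The library labelled flox/flox replicate 1 held 490 UMIs of the Cre transgene, a feature outside the comparisons of the 10 genes, while flox/flox replicate 2 held none.

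Several changes differed between classes by a test of the difference itself (edgeR, adjusted over all genes of a contrast). In Sst-like against CA1-like nuclei the log2 fold change was larger by 3.46 for Sesn2, 2.62 for Atf5 and 0.969 for Cebpg. In DG-like against CA1-like nuclei it was larger by 2.03 for Atf5. In OPC-like against astrocyte-like nuclei, a contrast chosen after the data were seen, it was larger by 3.59 for Sesn2, 3.18 for Atf5, 5.27 for Eif4ebp1 and 2.03 for Cebpg. Between all neuron-like and all other named nuclei the difference was -1.36 for Sesn2, 3.6 for Atf3 and 0.939 for Vldlr, where the other nuclei held fewer oligodendrocyte-like nuclei in Syn-Cre.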

How the results depend on the processing

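Of the 24 changes called, 263 of 294 values under other settings kept the call, 31 lost it and none changed direction. A setting in which a gene could not be tested, or had no adjusted p, gave no value and is not among the 294. With sums thinned to the smallest sum, 8 of the 24 kept the call, 2 lost it and the rest had no value. With DESeq2 the 16 calls in neuron subtypes became 10, with 1 in DG-like and 1 in Pvalb-like nuclei, and there were 4 in all neuron-like nuclei. DESeq2 called 2.68, 2.81 and 2.74% of all genes in these 3 classes, against 3.73, 4.35 and 0.169% in the main fit. Without a filter on low counts, there were 0 in Pvalb-like and 0 in oligodendrocyte-like nuclei. That setting called 0.260% of all genes in Pvalb-like and 0.00954% in oligodendrocyte-like nuclei, against 4.35% and 0.854% in the main fit. With doublets kept, there were 1 in Lamp5-like, 1 in oligodendrocyte-like and 0 in microglia-like nuclei, where 1.03, 0.284 and 0% of all genes were called. With names from clustering without integration, there were 5 in L4/5 IT-like and 1 in Lamp5-like nuclei. With sums thinned to the smallest sum there were 9 in neuron subtypes (0 in L4/5 IT-like, 1 in Pvalb-like) and 0 in the other classes (0 in oligodendrocyte-like and 0 in microglia-like), with no value in OPC-like, astrocyte-like and endothelial-like nuclei. Thinning within each class, chosen after seeing the data, left 0 in microglia-like nuclei and gave no value in endothelial-like nuclei.

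Leaving out 1 library at a time, the neuron subtypes held 12 to 26 calls (26 without Syn-Cre replicate 2), all neuron-like nuclei 0 to 2 (2 without Syn-Cre replicate 2), L2/3 IT-like 0 to 1 (1 without flox/flox replicate 1), DG-like 1 to 5 (1 without flox/flox replicate 1, 5 without Syn-Cre replicate 2), Pvalb-like 1 to 7, Lamp5-like 0 to 2, astrocyte-like 0 to 1 and microglia-like nuclei 0 to 1, the last 2 through Syn-Cre replicate 2. The fits on 3 libraries take the lone library to vary like the others.

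Of the differences between classes, DESeq2 called 0 for Sst-like and 0 for DG-like against CA1-like nuclei, 1 for neuron-like against other nuclei and 1 for OPC-like against astrocyte-like nuclei. Without the filter these were 0, 0, 2 and 2. With a library left out, Sst-like against CA1-like had 0 to 5 (0 without Syn-Cre replicate 1, 1 without either flox/flox library, 5 without Syn-Cre replicate 2), DG-like 0 to 1 (1 only without Syn-Cre replicate 2), L4/5 IT-like 0 to 1 (1 without flox/flox replicate 1), neuron-like against other nuclei 0 to 1 (1 without Syn-Cre replicate 2) and OPC-like against astrocyte-like nuclei 0 to 5 (0 without flox/flox replicate 1).

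Some changes near 0 turned direction. Ddit4 in OPC-like nuclei was at 0.0407 with doublets kept and 0.631 with names without integration. Vldlr in OPC-like nuclei was at -0.00849 with DESeq2, -0.0163 without a filter and -0.0413 to 0.0479 with a library left out. Atf5 in CA1-like nuclei was at 0.199 with doublets kept and -0.693 to 0.719 with a library left out. The share of CA1-like nuclei with any of the 10 genes differed by -2.48 percentage points at 4000 UMIs and by -1.43 without thinning. The cause was not tested for any of these.

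The labels number the mice 1 and 2 in both groups, and same-numbered libraries deviated together weakly (correlation 0.103 in CA3-like to 0.242 in L2/3 IT-like nuclei among neuron subtypes, 0.0168 in astrocyte-like and -0.064 in endothelial-like nuclei). No label names a shared litter or batch, but the numbers also go with the level of Xist. With the replicate number as a block there were 23 calls in neuron subtypes (5 in L4/5 IT-like, 3 in Lamp5-like) and 5 in all neuron-like nuclei, and no called gene lost its call. Over all genes the block fit called 4.77% in L4/5 IT-like, 2.49% in Lamp5-like and 1.49% in all neuron-like nuclei. Without the block these shares were 2.05, 0.479 and 0.169%. Low depth limits Atf3, which could not be tested in any subtype in the main fit. Of the other settings that gave it an adjusted p, 2 of 4 called it in Sst-like and 1 of 4 in Pvalb-like nuclei. Its log2 fold changes over settings ran from 3.72 to 4.79 and from 1.03 to 6.28 there.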
